A study of Mus musculus with 27 samples.

Results

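The genes of 8 secreted proteins of fat tissue (adipokines) were followed through weight gain, loss, maintenance and regain in the epididymal fat pad of mice, a visceral white fat depot. They were chosen by gene name: Lep (leptin), Adipoq (adiponectin), Retn (resistin), Cfd (adipsin), Rarres2 (chemerin), Rbp4 (retinol-binding protein 4), Apln (apelin) and Nampt (also known as visfatin). They are 8 of the 43460 gene names counted, and all 8 passed the filter on low counts that left 17821 names for testing. Every group was made of C57BL/6N mice and held 3 libraries of total RNA, and the labels name no mutation, drug or transgene. The gain8 group was 13 weeks old and had spent 8 weeks on high-fat diet, in which fat supplied 60% of the energy. The loss group was 17 weeks old and had ended a period of 12 weeks with 4 weeks of normal diet that followed high-fat feeding. The regain, gain4 and maintenance groups were 21 weeks old and had ended a period of 16 weeks. Regain mice were put back on the high-fat diet for 4 weeks after weight loss, gain4 mice had that diet for 4 weeks, and maintenance mice had 8 weeks of normal diet after high-fat feeding. The labels do not name the diet of the earlier weeks of the gain4 group. Normal diet was given for 8 weeks to the control8 group (13 weeks old), for 12 weeks to control12 (17 weeks old) and for 16 weeks to control16 (21 weeks old). The initial group was 5 weeks old, with no diet named. Replicates carry numbers in the labels, with no statement that they are different animals, and p-values therefore reflect the spread among these libraries, which may be technical.

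Leptin is released by adipocytes in proportion to fat stores and acts on the brain to limit feeding, while adiponectin, the most abundant adipocyte hormone, raises insulin sensitivity. Mouse resistin comes from adipocytes and opposes insulin, whereas in humans it comes mostly from macrophages, and adipsin is complement factor D, the protease that cleaves factor B in the alternative complement pathway. Chemerin attracts immune cells through Cmklr1 and also acts in adipocyte differentiation, retinol-binding protein 4 carries vitamin A from the liver and is also made by adipocytes, apelin comes from adipocytes and endothelial cells, and Nampt is the rate-limiting enzyme of NAD salvage, also found outside cells.

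Libraries held 26479773 to 32728594 counts. Lars2, whose product charges the leucine tRNA of mitochondria, was listed in the plan as a marker of RNA quality and ribosomal RNA-like reads. It stood at 1325 to 4104 CPM (counts scaled to library size, here with TMM factors) in 15 libraries, and the other 12 had 97.5 to 212 CPM. Every group except initial, whose 3 libraries were all high, had members above and below that gap, named here the high set and the low set. What separates the sets was not tested. A sum over 12 adipocyte markers, with no marker at 0, was lowest in loss library 1 at 16106 CPM and reached 58351 CPM in control12 library 1. Macrophage markers, 10 genes with none at 0, summed to 12127 CPM in loss library 1 and to 640 CPM in maintenance library 3. Of 9 liver markers Cyp2e1 was at 20.7 to 8078 CPM over the libraries and is kept apart here, a choice made after its values were seen. The other 8 summed to 7358 CPM in maintenance library 3 and to at most 118 CPM in any other library. With Cyp2e1 included the sum was 8571 CPM in maintenance library 3 and 8097 CPM in maintenance library 1, beside 40.1 CPM in loss library 1. Control12 library 3 had the lowest adipocyte sum of the control libraries, 31320 CPM. Its 11 markers of efferent duct, epididymis and sperm, with 4 at 0, summed to 106 CPM, the highest of all libraries. Results without maintenance library 3, loss library 1 and control12 library 3 are given where a call among the 8 genes differed.

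Lep and Rarres2 share chromosome 6 of GRCm38 and each other gene lies on a chromosome of its own. All are protein coding in the GENCODE annotation. Lep is at chr6:29060220-29073877 on the plus strand, Adipoq at chr16:23146536-23158028 on the plus strand, Retn at chr8:3655770-3660110 on the plus strand and Cfd at chr10:79890853-79892655 on the plus strand. Rarres2 is at chr6:48569696-48572789 on the minus strand, Rbp4 at chr19:38116629-38125281 on the minus strand, Apln at chrX:48025146-48034853 on the minus strand and Nampt at chr12:32819545-32853349 on the plus strand. In GENCODE, exons of Rarres2 and of Lrrc61, a gene on the opposite strand, overlap over 892 bases. The authors' exonic length of Rarres2 is 708 bases, so the gene model they counted was another and its overlap is not known. Whether the counting used strand is not stated in the labels, so reads of Rarres2 and Lrrc61 may be mixed. Lrrc61 was counted at 16.2 to 39.4 CPM over all libraries.

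Promoters of the 4 genes with the largest changes are shown as the 250 bases before the RefSeq transcription start (GRCm38.p6), 5′ to 3′ on the gene's strand. They set side by side Lep, which rose in gain8, and Cfd, Retn and Rbp4, which were lower in several diet groups. Capitals mark the letters of 2 motifs, TTGCNNAA, a C/EBP motif, and TATAAA, known as the TATA box, on either strand. Both were among 4 motifs searched, with AGGTCA, a nuclear receptor half-site, and CACGTG, an E-box. The Lep window is chr6:29059971-29060220, the Cfd window chr10:79890603-79890852, the Retn window chr8:3655520-3655769 and the Rbp4 window, the second of 2 RefSeq entries, chr19:38124812-38125061.
Lep: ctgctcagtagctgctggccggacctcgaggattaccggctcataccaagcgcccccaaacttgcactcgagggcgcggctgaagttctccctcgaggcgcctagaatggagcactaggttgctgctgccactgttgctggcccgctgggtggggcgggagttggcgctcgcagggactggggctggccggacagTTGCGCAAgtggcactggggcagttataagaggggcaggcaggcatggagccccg
Cfd: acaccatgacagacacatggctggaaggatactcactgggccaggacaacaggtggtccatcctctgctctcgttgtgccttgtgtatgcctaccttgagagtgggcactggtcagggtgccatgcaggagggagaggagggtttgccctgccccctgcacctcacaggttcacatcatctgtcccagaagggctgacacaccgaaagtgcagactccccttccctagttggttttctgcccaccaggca
Retn: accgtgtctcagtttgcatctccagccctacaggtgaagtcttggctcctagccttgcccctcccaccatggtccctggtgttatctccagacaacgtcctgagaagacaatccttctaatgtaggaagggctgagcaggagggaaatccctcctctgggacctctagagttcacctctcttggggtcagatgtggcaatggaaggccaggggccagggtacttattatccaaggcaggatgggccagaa
Rbp4: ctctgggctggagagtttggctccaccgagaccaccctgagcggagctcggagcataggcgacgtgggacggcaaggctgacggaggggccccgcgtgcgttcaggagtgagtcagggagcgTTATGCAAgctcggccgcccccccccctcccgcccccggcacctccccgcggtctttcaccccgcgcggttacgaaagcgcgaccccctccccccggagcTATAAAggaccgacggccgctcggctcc
In Lep the match TTGCGCAA begins 55 bases before the start. In Rbp4 the match TTATGCAA, which reads TTGCNNAA on the other strand, begins 128 bases before the start and TATAAA begins 28 bases before it. No match of the 4 motifs was found in the Cfd and Retn windows, nor in those of Adipoq, Apln and the first Rbp4 entry, and the Nampt window held AGGTCA 151 bases before the start. Among 32851 RefSeq promoters of this length TTGCNNAA was present in 9.56%, TATAAA in 12.4%, AGGTCA in 14% and CACGTG in 6.02%, and no matched motifs overlapped in these windows. RefSeq entries were matched for 7 of the 8 genes, and Rarres2 is named only.

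Levels of the 8 genes are compared with each other per exon length, as the authors' FPKM. In the initial group Cfd stood at 13151 ± 3705 FPKM (SD, n = 3, as for all group means here), Adipoq at 2901 ± 386 and Retn at 649 ± 72.4 FPKM. Rbp4 was at 233 ± 5.46, Rarres2 at 226 ± 28.5 and Lep at 61.2 ± 19.4 FPKM, so leptin was among the less abundant of these transcripts in young mice. Nampt group means ran from 20.8 to 33.0 FPKM and Apln group means from 3.02 to 6.30 FPKM, the lowest of the 8. In gain8 the order was different: Lep averaged 1642 ± 340.5 FPKM and Adipoq 1534 ± 226 FPKM, while Cfd averaged 468 ± 159 FPKM. In regain Adipoq was at 1238 ± 244, Lep at 972 ± 219.6 and Cfd at 452 ± 89.4 FPKM, against 2826 ± 168, 433 ± 292 and 5743 ± 1375 FPKM in control16.

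**Figure D1:**
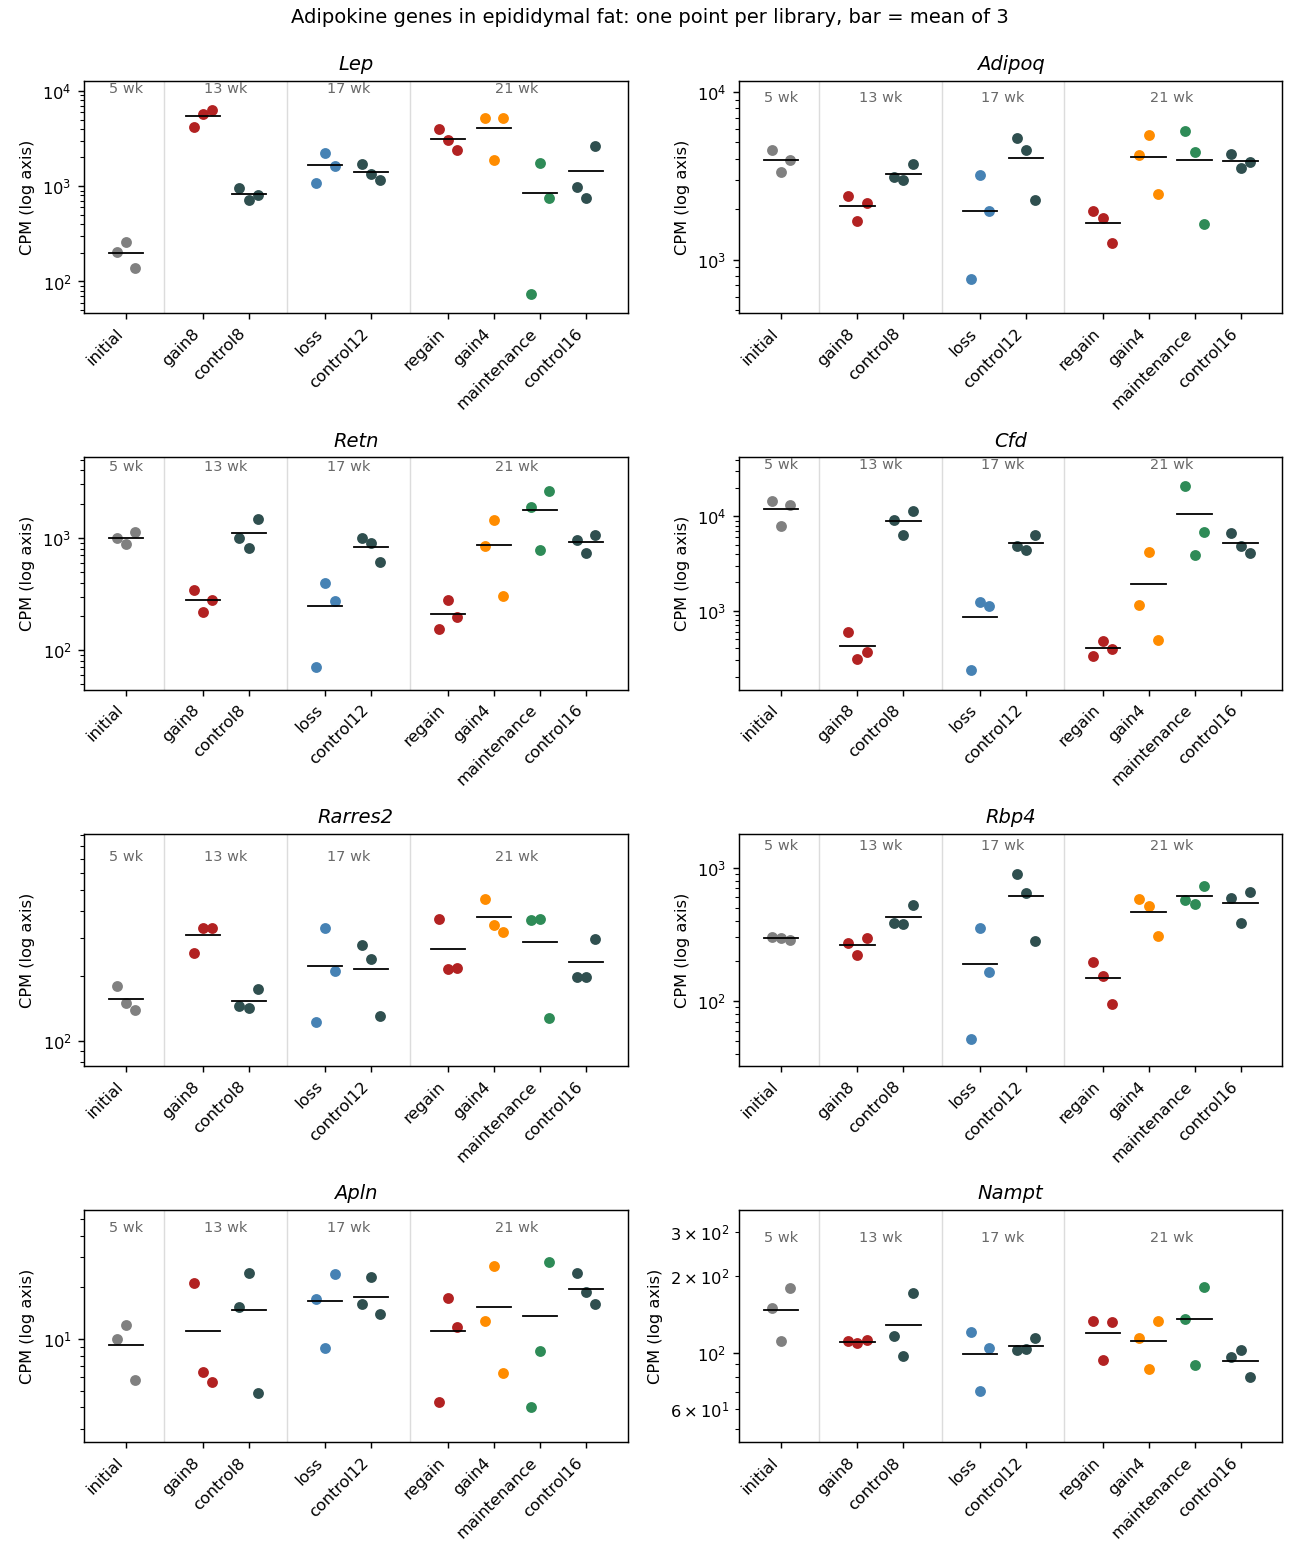
Level of each of the 8 adipokine genes in CPM (log axis) in every library, 1 point per library and a bar at the mean of 3, with groups in blocks by age (5, 13, 17 and 21 weeks). Cfd sits at 310.3 to 599 CPM in gain8 and at 334 to 474 CPM in regain, below the 4104 to 14414 CPM of the initial and control libraries, while Lep is highest in gain8, at 4205 to 6338 CPM.

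Mice of 13 weeks that had spent 8 weeks on high-fat diet were first set against mice of the same age on normal diet. Leptin transcripts rose and the transcripts of adipsin and resistin fell, while adiponectin did not pass the test in the model of all libraries. Lep was at 4205, 5657 and 6338 CPM in the gain8 libraries, against 952, 715 and 817 CPM in the control8 libraries. All gain8 libraries lay far above all control8 libraries, and the fold change was 6.52 (log2 2.71 ± 0.68 SE, adjusted p = 0.00744). This and every adjusted p below, unless another tool is named, is from the quasi-likelihood test of edgeR, adjusted by Benjamini-Hochberg. Cfd was at 599, 310.3 and 369 CPM in gain8, against 9057, 6307 and 11360.4 CPM in control8. Adipsin thus fell by 4.39 ± 0.74 on the log2 scale, or 20.9-fold (adjusted p = 0.000411), with no overlap of the groups. Retn was at 346, 218 and 279 CPM in gain8 and at 996, 822 and 1488 CPM in control8. Resistin fell by 1.97 ± 0.53 (adjusted p = 0.0115), also with no overlap, a call that was lost without control8 library 3 (adjusted p = 0.0542) or gain8 library 2 (adjusted p = 0.0644).

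The other 5 genes did not pass the test in gain8 in the model of all libraries. Adipoq was at 2388, 1692 and 2177 CPM in gain8, against 3089, 2987 and 3693 CPM in control8. The groups did not overlap, and the difference of -0.64 ± 0.44 on the log2 scale had an adjusted p of 0.302 and a 95% interval of -1.55 to 0.26. Rarres2 was at 258, 337 and 335 CPM in gain8 and at 146, 142 and 174 CPM in control8, again with no overlap, and its difference of 1.01 ± 0.37 missed the threshold (adjusted p = 0.0540), which it passed under 4 of 15 alternatives: DESeq2 (adjusted p = 0.0345), the compared groups only (0.00309), the Lars2 set as a term (0.00908) and 3 libraries left out together (0.00248). Rbp4 was at 272, 221 and 298 CPM in gain8, below the 384, 378 and 526 CPM of control8, with a difference of -0.70 ± 0.46 (adjusted p = 0.281). With the compared groups only, edgeR called Adipoq (-0.65, adjusted p = 0.0259) and Rbp4 (-0.72, adjusted p = 0.0217) lower too. Apln and Nampt overlapped between the groups, with differences of -0.42 ± 0.68 and -0.22 ± 0.25. Of the 8 genes 3 were called, beside 21.5% of all genes tested, with 1 higher and 2 lower, beside 12% and 9.52% of all genes. The groups did not overlap for 6 of the 8, beside 49.7% of all genes. The median log2 fold change was -0.53 over the 8 genes and -0.02 over all genes.

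Macrophage transcripts differed between these groups as well, while the sums of adipocyte markers in gain8 lay within the range of control8. Over 12 adipocyte markers, the sums were 36991 to 40448 CPM in gain8 and 34460 to 43287 CPM in control8. Of the 12 markers 2 fell, Adrb3 and Plin4, beside 9.52% of all genes. Over 10 macrophage markers the sums were 4295 to 5080 CPM in gain8 and 1123 to 1512 CPM in control8, and 9 of the 10 rose. Over 3 mitochondrial transcripts the sums were 11386 to 15974 CPM in gain8 and 20375 to 24035 CPM in control8, and 1 of the 3 fell. Over 4 red cell markers they were 466 to 933 CPM in gain8 and 1164 to 1424 CPM in control8, with none called by edgeR and none at an unadjusted p under 0.05. The part of these markers in the changes of adipokine transcripts was not tested, and in whole tissue fewer adipocytes and less RNA per adipocyte cannot be told apart. Within the Lars2 sets the differences of the 3 called genes had the same direction. The high set held 1 library of each group and the low set 2 of each. Lep differed by 2.56 in the high and 2.76 in the low set on the log2 CPM scale, Retn by -1.25 and -2.30 and Cfd by -3.40 and -4.91. Nampt, which was not called, differed by 0.19 and -0.35.

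Genes of adipokine handling were grouped into 9 lists. Of 14 receptors and binding partners 4 rose and 2 fell in gain8, with a list median of 0.12. Insr, the insulin receptor, averaged 89.2 ± 16.8 CPM in gain8 and 198 ± 12.2 CPM in control8 (-1.15 ± 0.18, adjusted p = 0.000319). C3ar1, the receptor of the complement peptide C3a, averaged 169 ± 32.5 CPM in gain8 and 30.5 ± 4.13 CPM in control8 (2.47 ± 0.46). Stra6l, a receptor of retinol-binding protein 4 in mouse, averaged 10.2 ± 1.18 CPM in gain8 and 0.473 ± 0.208 CPM in control8 (4.42 ± 0.86). So the receptor genes moved both ways. Of 9 genes of adiponectin assembly and secretion 4 rose and none fell, with a median of 0.40, among them the collagen lysyl hydroxylases Plod1 (0.98 ± 0.17) and Plod3 (0.79 ± 0.20) and the disulfide isomerase P4hb (0.61 ± 0.17). Adipoq itself was not called. Of 14 transcriptional regulators of adipokine genes 2 rose and 1 fell, with a median of -0.21. Atf3, a stress-induced transcription factor, averaged 112 ± 9.89 CPM in gain8 and 8.51 ± 3.34 CPM in control8 (3.71 ± 0.52), Cebpb, a C/EBP factor, rose by 0.91 ± 0.28 and the coactivator Ppargc1a fell by 2.09 ± 0.31.

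Of 17 other secreted adipokines tested, from a list of 20, 4 rose and 2 fell in gain8, with a median of 0.37. Metrnl, meteorin-like, averaged 73.4 ± 4.88 CPM in gain8 and 19.1 ± 1.85 CPM in control8 (1.95 ± 0.31, adjusted p = 0.000307), the monocyte attractant Ccl2 rose by 2.80 ± 0.51 and angiotensinogen (Agt) fell by 2.37 ± 0.55. Among 13 paralogues of adiponectin and resistin, from a list of 15, 4 rose and 1 fell: the complement components C1qb and C1qc, which are macrophage products, rose by 1.67 ± 0.41 and 1.26 ± 0.37, and Fam132a, which encodes adipolin, fell by 0.70 ± 0.21. Of 9 genes of leptin signalling none rose and 1 fell, Irs1 (9.66 ± 2.98 CPM in gain8, 32.3 ± 3.39 CPM in control8). In the alternative complement pathway, where adipsin acts, 1 of 8 genes tested rose and 2 fell. Cfb averaged 60.4 ± 5.45 CPM in gain8 and 30.5 ± 4.29 CPM in control8, and Cd46 fell by 1.03 ± 0.36. Both calls were lost when any 1 of the 6 libraries was left out. Of 12 genes of NAD salvage and use 2 rose and 2 fell, with Nnmt at 1.27 ± 0.35, and none of 10 retinoid genes was called by edgeR, with 3 at an unadjusted p under 0.05, 2 called by DESeq2 and 1 by limma. Calls were lost without control8 library 2 for Nnmt and C1qc, without control8 library 1 for C1qc, Fam132a and Cebpb, without control8 library 3 for Fam132a and Cebpb, without gain8 library 2 for all of C1qc, Fam132a and Cebpb, and without gain8 library 3 for Fam132a and Cebpb. Medians were -0.23 for the paralogues, -0.26 for leptin signalling, -0.21 for complement, -0.23 for NAD and -0.34 for retinoid genes, beside -0.02 for all genes.

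The loss group asks what was left 4 weeks after the return to normal diet. Leptin overlapped with the controls, whereas resistin, adipsin and retinol-binding protein 4 were lower than in control12. Lep was at 1086, 2216 and 1645 CPM in loss, against 1691, 1336 and 1147 CPM in control12. The groups overlapped, with a difference of 0.24 ± 0.64 and a 95% interval of -1.08 to 1.57. Cfd was at 234, 1239.7 and 1126 CPM in loss and at 4900.1, 4421 and 6291 CPM in control12. It fell by 2.59 ± 0.68 (adjusted p = 0.0108), or 6.00-fold, with no overlap. Retn was at 71.0, 396 and 275 CPM in loss, against 998, 895 and 616 CPM in control12. It fell by 1.76 ± 0.53 (adjusted p = 0.0232), with no overlap. Rbp4 was at 52.1, 353 and 165 CPM in loss, against 901, 652 and 283 CPM in control12, and fell by 1.69 ± 0.47 (adjusted p = 0.0154) although loss library 2 was above control12 library 3. Loss library 1 was the lowest loss library for Lep, Adipoq, Retn, Cfd, Rarres2 and Rbp4, with Adipoq at 764 CPM beside 3181 and 1937 CPM. It was not the lowest for Apln and Nampt.

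Of the 8 genes 3 were called in loss, beside 20% of all genes, all 3 of them lower, beside 8.24%, and 2 did not overlap between the groups, beside 37.1% of all genes. The median was -0.57 over the 8 genes and -0.04 over all genes. These calls rest on few libraries. Without loss library 1 none of the 8 was called: Cfd differed by -2.14 (adjusted p = 0.0765), Retn by -1.32 (adjusted p = 0.134) and Rbp4 by -1.24 (adjusted p = 0.0811). Without control12 library 1 the Retn and Rbp4 calls were lost (adjusted p = 0.0634 and 0.0759), without loss library 3 both again (0.0530 and 0.0561), and without control12 library 2 the Retn call (0.0540). Without loss library 2, Rbp4 differed by -2.50, and Adipoq was called lower as well (-1.57, adjusted p = 0.0210, against -1.03 ± 0.44 and 0.0976 with all libraries). With loss library 1, control12 library 3 and maintenance library 3 all left out, 1 of the 8 was called, Rbp4. Adipocyte markers summed to 16106, 41046 and 26479 CPM in loss and to 58351, 50837 and 31320 CPM in control12, and 3 of 12 fell. Macrophage markers summed to 12127, 4557 and 4306 CPM in loss and to 1098 to 1390 CPM in control12, and 9 of 10 rose. All 4 red cell transcripts tested and all 3 mitochondrial ones fell. The part of these markers in the result was not tested. Within the Lars2 sets Cfd differed by -3.36 and -1.98, Retn by -2.41 and -1.33 and Rbp4 by -2.21 and -1.35 in the high and low set. The high set held 2 libraries of each group and the low set 1 of each.

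Several related lists had called genes in loss. Among the 14 receptors and binding partners 3 rose and 4 fell, led by C3ar1 (280.5 ± 165 CPM in loss, 34.0 ± 5.86 CPM in control12, 3.04 ± 0.47), Cap1, which binds resistin in humans (471 ± 256 CPM in loss, 197 ± 9.70 CPM in control12), and Stra6l (4.43 ± 0.85). Of 14 regulators 1 rose and 4 fell: Atf3 averaged 212 ± 123 CPM in loss and 9.59 ± 2.29 CPM in control12 (4.47 ± 0.54), Foxo1, an insulin-controlled transcription factor, fell by 1.15 ± 0.25 and Ppargc1a fell by 1.08 ± 0.31. The Ppargc1a call was lost without loss library 1 or control12 library 3. Of the other adipokines 3 rose and 3 fell, with a median of -0.78. Metrnl averaged 118 ± 58.7 CPM in loss and 20.9 ± 2.82 CPM in control12 (2.50 ± 0.32), Ccl2 rose by 3.96 ± 0.54 and the cytokine Tnf by 3.59 ± 0.62. Of the paralogues 2 rose and 4 fell: C1qb rose by 1.52 ± 0.41, Fam132a fell by 0.96 ± 0.21, and Retnla, the resistin-like gene of alternatively activated macrophages, averaged 85.2 ± 73.2 CPM in loss and 505.7 ± 131 CPM in control12 (-2.57 ± 0.67). Without loss library 1 the calls of C1qb and Retnla were lost.

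Smaller groups followed in loss. Of 9 leptin signalling genes 2 rose, both of which encode inhibitors of the leptin receptor's signal, Ptpn1 by 1.25 ± 0.29 and Socs3 by 1.03 ± 0.32, and of 9 assembly genes 2 rose, the chaperone Hspa5 by 1.01 ± 0.28 and P4hb by 0.58 ± 0.17. Each of these 4 calls was lost without loss library 1, that of P4hb also without control12 library 2, and that of Socs3 also without control12 library 2 or 3 or loss library 3. Of the 10 retinoid genes the retinaldehyde dehydrogenase Aldh1a1 fell (151 ± 68.2 CPM in loss, 374 ± 46.4 CPM in control12), of 8 complement genes the complement inhibitor Cd55 fell by 1.05 ± 0.32, and of 12 NAD genes Parp1 rose by 0.51 ± 0.18. The Aldh1a1 call was lost without loss library 1 or control12 library 3, and the Cd55 and Parp1 calls without any 1 of 4 and 5 of the 6 libraries. List medians were 0.32 for assembly, -0.37 for regulators, -0.07 for receptors, -0.15 for leptin signalling, -0.24 for paralogues, -0.04 for retinoid, -0.35 for complement and -0.06 for NAD genes, beside -0.04 for all genes.

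The regain group asks what a second period of high-fat diet did. At 21 weeks the transcripts of resistin, adipsin and retinol-binding protein 4 fell relative to control16, and leptin and adiponectin did not pass the test. Cfd was at 334, 474 and 397 CPM in regain, against 6746, 4913 and 4104 CPM in control16. It fell by 3.71 ± 0.71 (adjusted p = 0.000836), or 13.1-fold, and the groups were far apart. Retn was at 154, 281 and 197 CPM in regain and at 953, 735 and 1069.8 CPM in control16. It fell by 2.13 ± 0.53 (adjusted p = 0.00694), or 4.37-fold, with no overlap. Rbp4 was at 196, 154 and 95.3 CPM in regain, against 593, 386 and 660.3 CPM in control16, a fall of 1.88 ± 0.47 (adjusted p = 0.00703), or 3.68-fold, also with no overlap. Adipoq was at 1939.6, 1772 and 1251 CPM in regain and at 4279, 3510.2 and 3819.9 CPM in control16. The groups did not overlap for Adipoq, and the difference of -1.23 ± 0.44 missed the threshold narrowly (adjusted p = 0.0504), which it passed under 6 of 15 alternatives. These were RLE scaling (adjusted p = 0.0475), DESeq2 (0.0177), the compared groups only (0.0106), the replicate number as a block (0.0429), the Lars2 set as a term (0.0337) and 3 libraries left out together (0.00167). Lep was at 4000.2, 3078 and 2394 CPM in regain, against 985, 754 and 2624 CPM in control16, where library 3 stood above the lowest regain library. Its difference was 1.12 ± 0.64 (adjusted p = 0.223), and 1.83 without control16 library 3 (adjusted p = 0.0839).

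Of the 8 genes 3 were called in regain, beside 21.7% of all genes, all 3 of them lower, beside 9.23%, and 4 did not overlap between the groups, beside 42.8% of all genes. The median was -1.02 over the 8 genes and -0.01 over all genes. The 3 calls held under each of 15 alternatives. Adipocyte markers summed to 32654, 28853 and 25088 CPM in regain and to 47447, 37207 and 53438 CPM in control16, and 5 of 12 fell. Macrophage markers summed to 9219, 4606 and 7115 CPM in regain and to 1513 to 1890 CPM in control16, and 9 of 10 rose. All 3 mitochondrial transcripts fell. The part of these markers in the result was not tested. Within the Lars2 sets Cfd differed by -3.73 in the high and -3.62 in the low set, Retn by -1.83 and -2.80, Rbp4 by -1.98 and -1.75 and Lep by 1.65 and 0.61. The high set held 2 libraries of each group and the low set 1 of each.

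Of 14 receptors and binding partners 3 rose and 4 fell in regain, with a median of -0.43. Insr averaged 81.4 ± 10.05 CPM in regain and 193 ± 27.3 CPM in control16 (-1.24 ± 0.18), Adipor2, an adiponectin receptor, averaged 445 ± 70.9 CPM in regain and 1229 ± 184 CPM in control16 (-1.47 ± 0.22, adjusted p = 0.000105), and C3ar1 rose by 3.10 ± 0.47. Cmklr1, the chemerin receptor, which was chosen after its values were seen, averaged 104 ± 13.5 CPM in regain and 392 ± 58.1 CPM in control16 (-1.92 ± 0.37, adjusted p = 0.000949). It was lower in gain8 and in loss too, by 1.09 ± 0.37 and 1.43 ± 0.37 (adjusted p = 0.0376 and 0.00969), calls that were lost without control8 library 1 or 2 or gain8 library 2 or 3, and without loss library 1. Of 14 regulators 1 rose and 2 fell in regain: Atf3 averaged 154.5 ± 10.3 CPM in regain and 9.48 ± 1.47 CPM in control16 (4.03 ± 0.53), the C/EBP factor Cebpd fell by 2.13 ± 0.55 and Klf15 by 1.10 ± 0.29. The Klf15 call was lost without control16 library 2 or regain library 1.

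Of the other adipokines 3 rose and 5 fell in regain, with a median of -0.40, Metrnl by 2.11 ± 0.31 and Ccl2 by 3.45 ± 0.52 upward, and Vegfa, the endothelial growth factor, at 86.7 ± 12.7 CPM in regain and 468 ± 157 CPM in control16 (-2.43 ± 0.37). Of the paralogues 3 rose and 2 fell, C1qb at 864 ± 376 CPM in regain and 223 ± 26.9 CPM in control16, C1qc with 1.66 ± 0.38 and Fam132a with -1.07 ± 0.21. Among leptin signalling genes 2 rose and 1 fell: Irs1 fell by 1.44 ± 0.34, Ptpn1 rose by 1.03 ± 0.29 and Socs3 by 1.11 ± 0.32. The Ptpn1 and Socs3 calls were each lost without control16 library 3 or regain library 3, and that of Socs3 without control16 library 2. Aldh1a1 fell by 1.30 ± 0.37, lost without control16 library 1 or regain library 2 or 3, and Parp1 rose by 0.62 ± 0.18, lost without any 1 of 4 libraries. None of 9 assembly and 8 complement genes was called in regain by edgeR, with 0 and 4 at an unadjusted p under 0.05, 0 and 1 called by DESeq2 and none by limma. Their medians were 0.09 and -0.06, and those of the regulators -0.23, paralogues -0.49, leptin signalling -0.16, retinoid -0.45 and NAD genes -0.02, beside -0.01 for all genes.

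The gain4 group had 4 weeks of the high-fat diet at the same age and was compared with the same control16 libraries. None of the 8 genes was called by edgeR, DESeq2 or limma, and 2 had an unadjusted p under 0.05, beside 5.82% of all genes called. Lep was at 5218, 1894 and 5250.4 CPM in gain4, against 985, 754 and 2624 CPM in control16. Library 2 of gain4 lay within the control range while the other two lay above it, and the difference was 1.50 ± 0.65 (adjusted p = 0.158), or 2.25 without control16 library 3 (adjusted p = 0.0592). Cfd was at 1144, 4158 and 494 CPM in gain4 and at 6746, 4913 and 4104 CPM in control16. The same gain4 library 2 overlapped the controls here, and the difference was -1.44 ± 0.65 (adjusted p = 0.175). Without gain4 library 2 Cfd was called lower, by 2.69 (adjusted p = 0.0425). Retn was at 841, 1442 and 301 CPM in gain4, on both sides of the control16 libraries. Rarres2, at 458, 345 and 321 CPM in gain4 and at 199, 199 and 298 CPM in control16, was the 1 gene whose groups did not overlap, beside 25.4% of all genes, with a difference of 0.69 ± 0.36 (adjusted p = 0.245). It was called with maintenance library 3, loss library 1 and control12 library 3 left out (0.72, adjusted p = 0.0394). Adipoq, at 4223, 5529 and 2467 CPM in gain4, differed by 0.07 ± 0.43. The median was -0.01 over the 8 genes and -0.02 over all genes.

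Some genes around the adipokines were called in gain4. Of 14 receptor genes 2 rose and 1 fell: Insr averaged 104 ± 18.6 CPM in gain4 and 193 ± 27.3 CPM in control16 (-0.89 ± 0.18, adjusted p = 0.0148), Stra6l rose by 3.70 ± 0.85 and C3ar1 by 1.57 ± 0.45. Atf3 rose (53.7 ± 20.4 CPM in gain4, 9.48 ± 1.47 CPM in control16), Metrnl rose by 1.28 ± 0.30, Ccl2 by 2.03 ± 0.50 and Nnmt by 1.67 ± 0.35. Among genes that fell were Irs1 by 1.41 ± 0.34, Stat3, the transcription factor of the leptin receptor, by 0.69 ± 0.17, Vegfa by 1.27 ± 0.36 and the retinoic acid receptor Rarb by 1.14 ± 0.33. Each of these calls was lost without control16 library 1 and again without control16 library 2. Those of Nnmt, Irs1, Stat3, Ccl2, Vegfa and Rarb were also lost without gain4 library 2, those of C3ar1, Vegfa and Rarb without gain4 library 3, that of Rarb without gain4 library 1 and that of C3ar1 without control16 library 3. Of 9 assembly, 8 complement and 13 paralogous genes edgeR called none, with 2, 4 and 1 at an unadjusted p under 0.05 and 0, 1 and 0 called by DESeq2 and none by limma. In gain4, 1 of 14 regulators rose, 2 of 17 other adipokines rose and 1 fell, 2 of 9 leptin signalling genes and 1 of 10 retinoid genes fell, and 1 of 12 NAD genes rose. Medians were -0.37 for receptors, 0.35 for assembly, 0.07 for regulators, 0.04 for other adipokines, -0.40 for leptin signalling, 0.14 for paralogues, 0.17 for NAD, 0.01 for complement and -0.05 for retinoid genes, beside -0.02 for all genes. Adipocyte markers summed to 41978 to 55881 CPM in gain4, with none of 12 called by edgeR and 2 at an unadjusted p under 0.05, and macrophage markers to 2265 to 4270 CPM, with 3 of 10 higher.

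The maintenance group asks whether 8 weeks of normal diet after high-fat feeding brought the transcripts to the level of mice that never had it. None of the 8 genes was called by edgeR, DESeq2 or limma, and 1 had an unadjusted p under 0.05. Over all genes edgeR called none, 0%, at a smallest adjusted p of 0.0508, with 3633 at an unadjusted p under 0.05, while DESeq2 called 824 and limma 1. Of the 9 groups this one had the largest SD in CPM for Adipoq, Retn, Cfd, Rarres2, Apln and Nampt. Cfd was at 21084, 3862 and 6789.5 CPM in maintenance, against 6746, 4913 and 4104 CPM in control16, so that library 1 held more adipsin reads than any other library of the series. Lep was at 74.1, 1742 and 743 CPM in maintenance and at 985, 754 and 2624 CPM in control16, and library 1 had the lowest leptin level of all 27 libraries. Retn was at 1885, 774 and 2617 CPM in maintenance, against 953, 735 and 1069.8 CPM in control16. The differences were 1.01 ± 0.65 for Cfd, -0.77 ± 0.64 for Lep and 0.94 ± 0.52 for Retn (adjusted p = 0.389, 0.520 and 0.314), with 95% intervals of -0.33 to 2.35, -2.10 to 0.56 and -0.14 to 2.01.

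Without maintenance library 1 the Cfd difference was -0.01. Adipoq was at 5812, 4387 and 1631 CPM in maintenance and differed by 0.03 ± 0.43. Rbp4 was at 574, 536 and 734 CPM in maintenance, the last in the library with 5233 CPM of albumin (Alb), a liver transcript, against at most 80.9 CPM elsewhere. Rbp4 is also a liver transcript, and the part of liver reads in that value was not tested. Nampt, at 136, 89.3 and 182 CPM in maintenance and 96.5, 103 and 80.3 CPM in control16, differed by 0.54 ± 0.25 (adjusted p = 0.232) and was called without maintenance library 2 (0.78, adjusted p = 0.0477). The groups overlapped for all 8 genes, beside 15.7% of all genes without overlap. The median was 0.24 over the 8 genes and 0.02 over all genes. Maintenance library 3 was the only high-set library of maintenance, and control16 library 3 the only low-set one of control16. Within the high and the low set Lep differed by -0.21 and -2.87 on the log2 CPM scale, Cfd by 0.24 and 1.14, Retn by 1.64 and 0.18 and Adipoq by -1.25 and 0.40. Over the 9 related lists, with 106 genes tested, edgeR called 0, with 29 at an unadjusted p under 0.05, and DESeq2 called 12 and limma 0. Adipocyte markers summed to 46656 to 49430 CPM in maintenance, and macrophage markers to 2750, 1892 and 640 CPM.

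**Figure D2:**
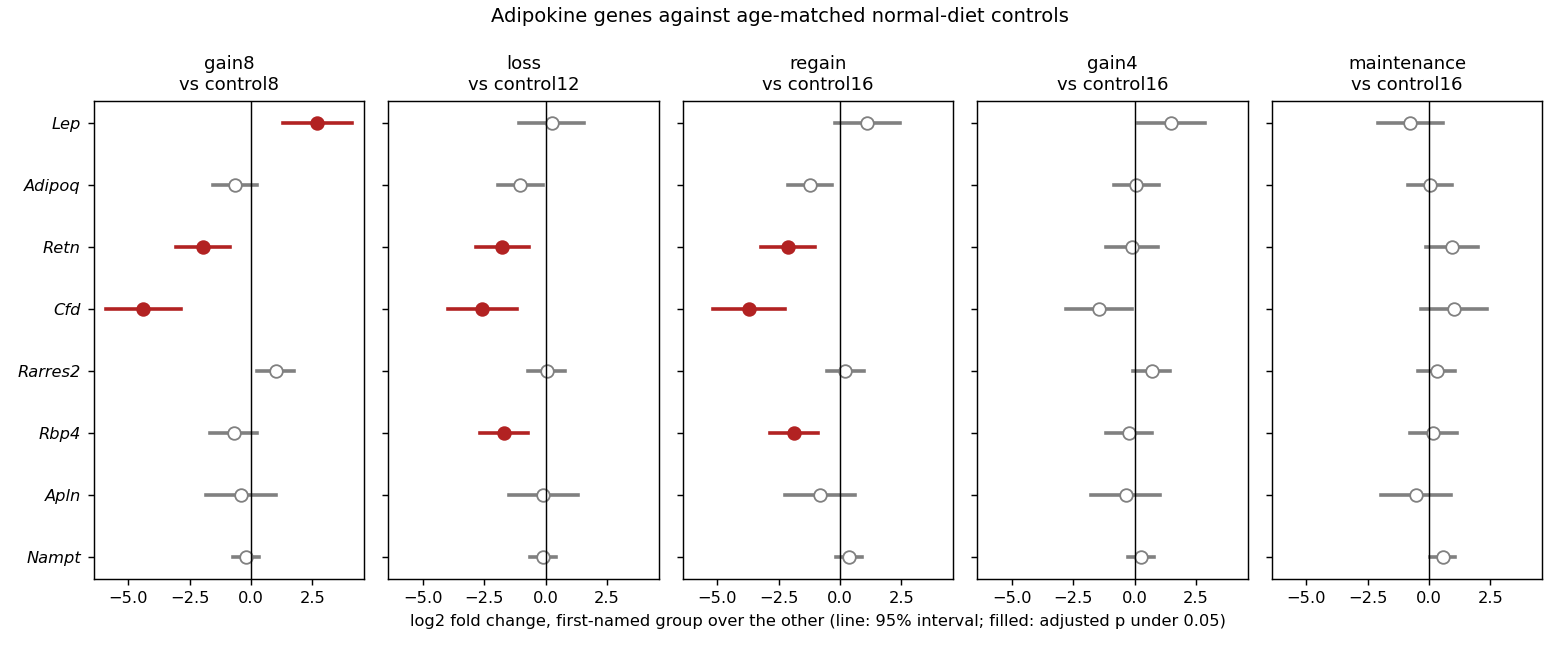
Log2 fold change of each adipokine gene (x axis) against age-matched normal-diet controls in 5 comparisons, with its 95% interval as a line and calls at an adjusted p under 0.05 filled. Cfd and Retn are called lower in gain8, loss and regain, Rbp4 in loss and regain, and Lep higher in gain8 (2.71), while no gene is called in gain4 or maintenance. The last 3 comparisons share the control16 libraries.

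The 3 groups aged 21 weeks were also compared with each other, which asks whether a second high-fat period differed from a first and from staying on normal diet. Against gain4, Retn in regain fell by 2.03 ± 0.53 (adjusted p = 0.0368) and Rbp4 by 1.66 ± 0.47 (adjusted p = 0.0429), with 4 of 8 genes not overlapping, beside 25% of all genes. These 2 of 8 calls stand beside 5.49% of all genes called, and 1.36% called lower. Cfd differed by -2.27 ± 0.67 and Adipoq by -1.30 ± 0.44, both with no overlap and with adjusted p of 0.0503 and 0.0772. Without gain4 library 2 the Cfd difference was -1.02 (adjusted p = 0.358) and that of Retn -1.43 (adjusted p = 0.162). With the 3 libraries left out together Cfd and Adipoq were called (adjusted p = 0.0177 and 0.00433). Lep, at 4000.2, 3078 and 2394 CPM in regain and 5218, 1894 and 5250.4 CPM in gain4, differed by -0.38 ± 0.64. Calls in this comparison depended on single libraries: neither Retn nor Rbp4 was called without gain4 library 1 or 2 or any regain library, with adjusted p up to 0.191 and 0.231, and without gain4 library 3 all of Adipoq, Retn, Cfd and Rbp4 were called.

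Against maintenance 5 of 8 genes were called in regain, beside 26.9% of all genes, 1 of them higher and 4 lower, beside 13.9% and 13%, and 4 did not overlap, beside 32.5% of all genes. Cfd fell by 4.72 ± 0.75 (adjusted p = 0.000126), or 26.3-fold, Retn fell by 3.06 ± 0.55 (adjusted p = 0.000444), or 8.36-fold, and Rbp4 fell by 2.05 ± 0.47 (adjusted p = 0.00342), or 4.14-fold. These 3 were called under all 15 alternatives. Adipoq fell by 1.25 ± 0.44 (adjusted p = 0.0393) although maintenance library 3, at 1631 CPM, lay among the regain libraries, and Lep rose by 1.89 ± 0.66 (adjusted p = 0.0380). Both of these calls were lost without maintenance library 1 (adjusted p = 0.205 and 0.0699) and without any 1 of the regain libraries, and the Lep call was lost without maintenance library 3 (0.0899) and the Adipoq call without maintenance library 2 (0.0805). The Lep difference was 2.94 without maintenance library 2, and that of Cfd -3.72 without maintenance library 1. Adipoq was called under 5 of 15 alternatives. Its call was also lost with the Lars2 set as a term (-1.09, adjusted p = 0.0666), with limma on log2(FPKM + 1) (-0.96, adjusted p = 0.157), with the compared groups only (0.180) and without the filter on low counts (0.0542). Within the high Lars2 set, 2 regain libraries against maintenance library 3 alone, Adipoq differed by -0.13. Within the low set, 1 regain library against 2 of maintenance, it differed by -1.38. With the 3 libraries left out together the Lep call was lost (1.78, adjusted p = 0.0902), as it was with the compared groups only (0.253).

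Successive stages of the cycle differ in age as well as in diet. Against gain8 none of the 8 genes was called in loss by edgeR, beside 0.0786% of all genes, and 1 had an unadjusted p under 0.05. Lep, at 1086 to 2216 CPM in loss and 4205 to 6338 CPM in gain8, was the 1 gene without overlap, beside 16.6% of all genes, with a difference of -1.71 ± 0.65 (adjusted p = 0.290), and Cfd differed by 1.02 ± 0.65. DESeq2 and limma called none of the 8 either. Maintenance against loss gave 3 calls, beside 24.5% of all genes, all higher, beside 11.6%: Cfd rose by 3.61 ± 0.71 (adjusted p = 0.00119), Retn by 2.83 ± 0.55 (adjusted p = 0.00108) and Rbp4 by 1.70 ± 0.47 (adjusted p = 0.0122), and the same 3 did not overlap, beside 28.6% of all genes. The Rbp4 call was lost without loss library 1 (adjusted p = 0.0630) and with the 3 libraries left out together (0.0560), and its difference was 2.51 without loss library 2. The Cfd difference was 2.60 without maintenance library 1. Without loss library 2 or maintenance library 3 Adipoq was called higher too (adjusted p = 0.0198 and 0.0200), and without maintenance library 2 Lep lower (adjusted p = 0.0367). Regain against loss gave no call among the 8, none at an unadjusted p under 0.05 and 0% of all genes, where 1407 had an unadjusted p under 0.05 and DESeq2 called 174. Lep, at 2394 to 4000.2 CPM in regain, stood above the loss libraries without overlap, beside 11% of all genes (0.94 ± 0.64).

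The effects against age-matched controls were set against the effect of gain8. The maintenance effect minus the gain8 effect was called for 3 of 8 genes, beside 11.1% of all genes, positive for 2 and negative for 1, beside 5.33% and 5.82%: -3.48 ± 0.93 for Lep (adjusted p = 0.0199), 2.91 ± 0.74 for Retn (adjusted p = 0.0157) and 5.40 ± 0.96 for Cfd (adjusted p = 0.00324). The Lep call was lost without control16 library 3 (-2.76, adjusted p = 0.0599), its difference was -4.53 without maintenance library 2, and that of Cfd was 4.37 without maintenance library 1. The loss effect minus the gain8 effect was -2.46 ± 0.91 for Lep and 1.80 ± 0.91 for Cfd (adjusted p = 0.626 and 0.755), and the gain4 effect minus the gain8 effect was 2.94 ± 0.92 for Cfd and 1.88 ± 0.73 for Retn (adjusted p = 0.467 and 0.538), or 1.69 and 1.28 without gain4 library 2. Neither of these called any gene with edgeR, 0%, with 1231 and 1519 genes at an unadjusted p under 0.05 and 32 and 41 called by DESeq2.

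Ages were followed from the initial group, which has no diet named, through the groups on normal diet. In edgeR's model of all libraries none of the 8 genes passed the test between neighbouring ages. Mean Lep was 200.02 CPM in initial, 828 CPM in control8, 1391 CPM in control12 and 1455 CPM in control16. The last step rests on control16 library 3, as the other 2 control16 libraries lay below all control12 libraries. Lep was at 204, 258 and 137 CPM in the initial libraries at 5 weeks, at 952, 715 and 817 CPM in control8, at 1691, 1336 and 1147 CPM in control12 and at 985, 754 and 2624 CPM in control16. The first 3 of these groups did not overlap with each other, and control16 overlapped with both control8 and control12. Control8 against initial gave a difference of 2.05 ± 0.66, or 4.14-fold (adjusted p = 0.138), called by DESeq2 (adjusted p = 0.0283). Cfd was at 14414, 7904 and 13368 CPM in the initial libraries, at 9057, 6307 and 11360.4 CPM in control8, at 4900.1, 4421 and 6291 CPM in control12 and at 6746, 4913 and 4104 CPM in control16. All control12 libraries lay below the lowest control8 library, with a difference of -0.78 ± 0.64. Rbp4 averaged 295 ± 5.31 CPM at the start, 429 ± 83.9 CPM in control8, 612 ± 311 CPM in control12 and 546 ± 143 CPM in control16. Adipoq group means lay between 3256 and 4012 CPM and Retn means between 836 and 1102 CPM from the initial group to control16.

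None of the 8 genes was called between neighbouring control ages in edgeR's model of all libraries. With the compared groups only, edgeR called Lep (2.07, adjusted p = 0.00582) and Rbp4 (0.56, adjusted p = 0.0485) higher in control8 than in initial. Between control8 and initial 1 had an unadjusted p under 0.05, 2 did not overlap, Lep and Rbp4, beside 38.5% of all genes, and 0.724% of all genes were called. Between control12 and control8 none of the 8 had an unadjusted p under 0.05, with 0% of all genes called and 631 at an unadjusted p under 0.05, and 2 did not overlap, Lep higher and Cfd lower in control12, beside 13.5% of all genes. Between control16 and control12 the only gene without overlap was Nampt, lower in control16, beside 9.18% of all genes, and of all genes 0% were called and 665 had an unadjusted p under 0.05. DESeq2 called none of the 8 in these last 2 comparisons.

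Ratios within a library do not depend on its depth. Lep over Adipoq, per exon length, was 0.725, 1.38 and 1.20 in gain8, against 0.127, 0.0986 and 0.0911 in control8. In loss the ratios were 0.586, 0.287 and 0.350, above the 0.132, 0.123 and 0.208 of control12. In regain they were 0.849, 0.715 and 0.788, against 0.0948, 0.0885 and 0.283 in control16. So in all 3 groups every library had more leptin transcript per adiponectin transcript than its age-matched controls, in loss too, where Lep alone overlapped with control12. The gain4 ratios, 0.509, 0.141 and 0.876, and the maintenance ratios, 0.00525, 0.164 and 0.188, overlapped with control16. In the initial group they were 0.0188, 0.0319 and 0.0143.

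Cfd over Adipoq was 0.376, 0.274 and 0.253 in gain8, against 4.39, 3.16 and 4.60 in control8, and 0.459, 0.583 and 0.870 in loss, against 1.39, 1.48 and 4.16 in control12. In regain it was 0.258, 0.400 and 0.475, against 2.36, 2.09 and 1.61 in control16. Adipsin was thus below its controls relative to adiponectin as well as in CPM in these 3 groups, without overlap. The gain4 libraries had 0.405, 1.13 and 0.300, all below control16, although Cfd in CPM overlapped, and the maintenance libraries had 5.43, 1.32 and 6.23, on both sides of control16. An exact permutation test of 3 against 3 cannot go below p = 0.1, so no test of the ratios is given.

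**Figure D3:**
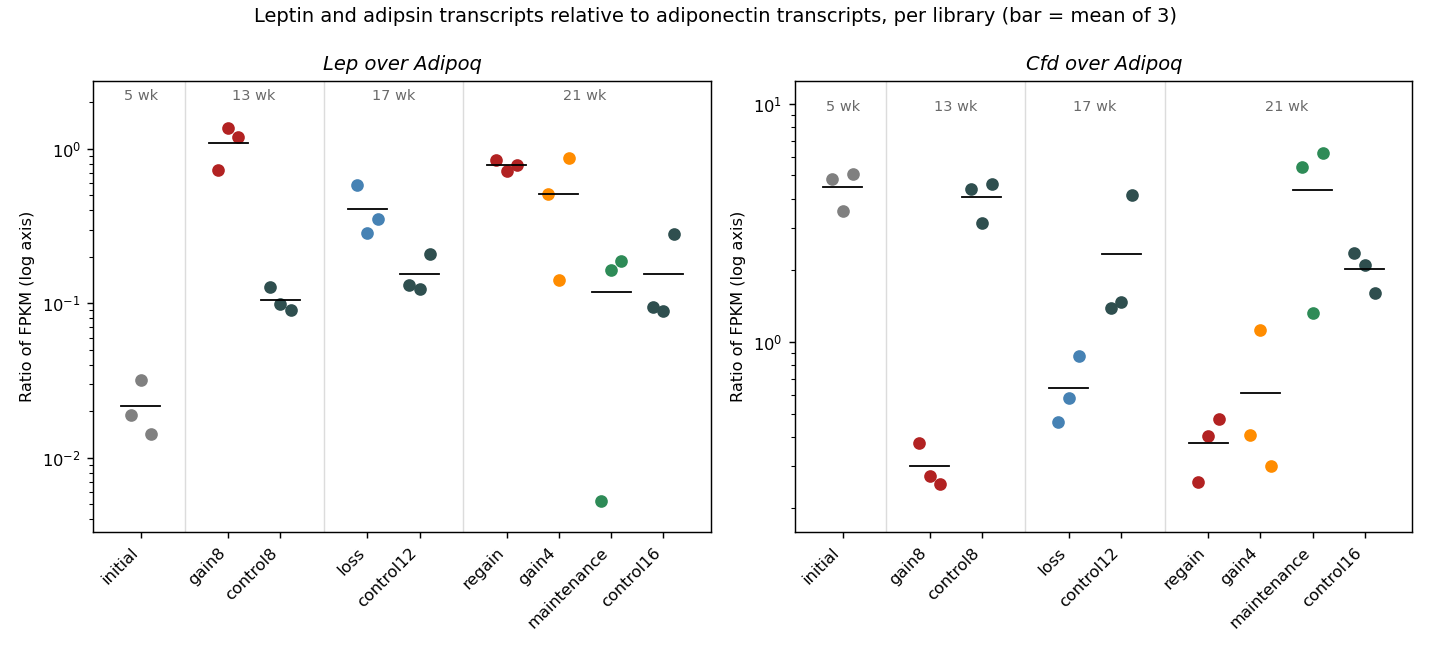
Lep over Adipoq (left) and Cfd over Adipoq (right) as ratios of the authors' FPKM (log axis), 1 point per library and a bar at the mean of 3, by group and age. Gain8 and regain sit high on the left, with means of 1.10 and 0.784, and low on the right, with means of 0.301 and 0.378.

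The other 3 members had narrower ranges of group means. Rarres2 group means ran over a 2.43-fold range, the highest in gain4 at 375 ± 73.0 CPM and the lowest in control8 at 154 ± 17.5 CPM, and each group overlapped with the next in order of level. Nampt group means ran over a 1.58-fold range, from 147 ± 34.6 CPM in the initial group down to 93.1 ± 11.5 CPM in control16, and the gain8 libraries, at 111, 109 and 112 CPM, lay within the 97.3 to 172 CPM of control8. Apln was the rarest member, with 106 to 784 reads per library. Its group means ran from 19.7 ± 4.19 CPM in control16 down to 9.26 ± 3.21 CPM in the initial group, a 2.12-fold range, with 11.1 ± 8.78 CPM in gain8 and 14.8 ± 9.62 CPM in control8. In edgeR's model of all libraries no comparison called any of these 3 genes. Some of the alternatives given above called Rarres2 in gain8 and in gain4 and Nampt in maintenance.

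Apelin differed between the Lars2 sets within groups. In 7 of the 8 groups that hold both sets, every high-set library had more Apln than every low-set library, and in the eighth, control12, the sets overlapped. Within gain8 the high-set library 1 had 21.2 CPM beside 6.43 and 5.62 CPM, and within maintenance the high-set library 3 had 28.2 CPM beside 4.00 and 8.51 CPM. Across all libraries the median was 18.8 CPM (5.75 to 28.2) in the high set and 7.47 CPM (4.00 to 16.1) in the low set. Endothelial markers, 7 genes with none at 0, summed to a median of 1497 CPM (698 to 2112) in the high and 629.6 CPM (283 to 922) in the low set. The initial group, all high set, had the highest mean endothelial sum of the 9 groups, 1913 ± 173 CPM, but the lowest mean Apln, 9.26 ± 3.21 CPM. The part of endothelial markers in the apelin levels was not tested. Lep and Rarres2 went the other way, with every high-set library below every low-set library in 7 of the 8 groups.

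**Figure D4:**
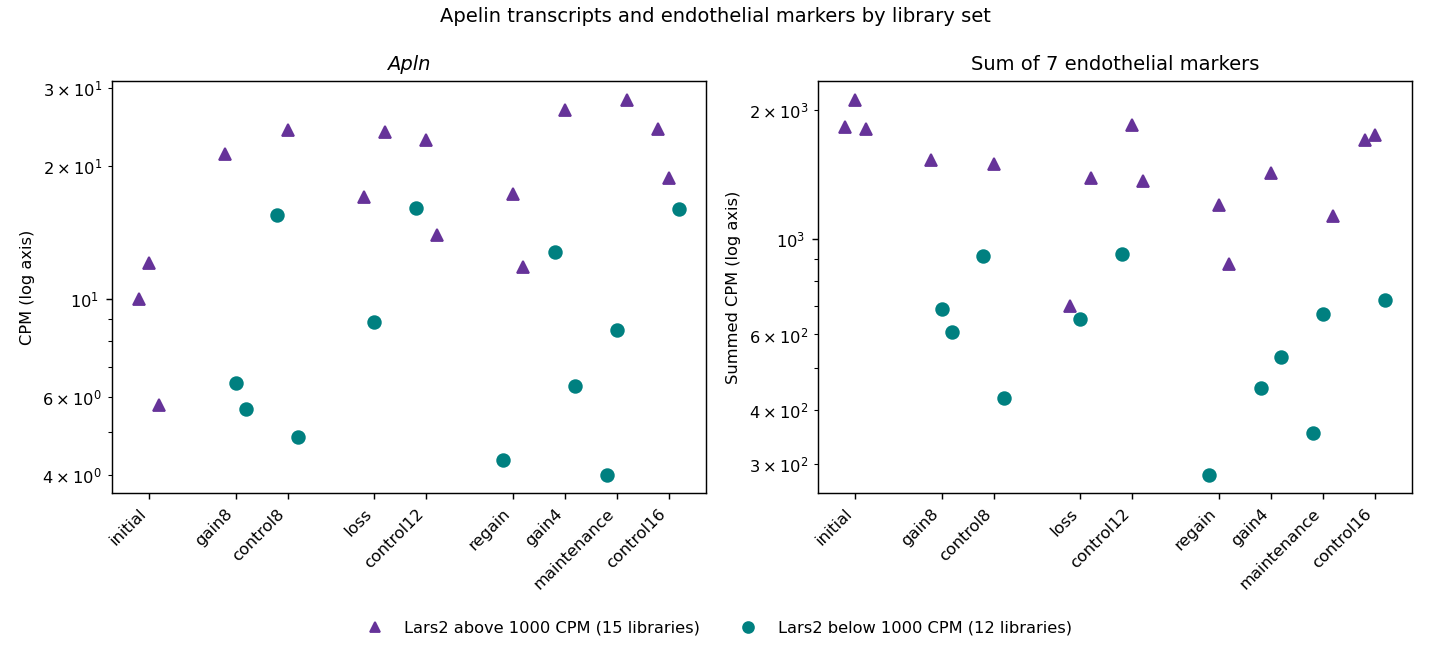
Apln in CPM (left) and the sum of 7 endothelial markers in CPM (right), both on log axes, 1 point per library by group, triangles for the 15 libraries with Lars2 above 1000 CPM and circles for the other 12. Triangles lie above circles within most groups in both panels, with Apln medians of 18.8 and 7.47 CPM.

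Ordered by mean CPM, Lep ran from gain8 (5400.3 ± 1089) through gain4 (4121 ± 1928) and regain (3158 ± 806) to loss (1649 ± 565), control16, control12, maintenance and control8, with initial (200.02 ± 60.7) last. Neighbours in this order overlapped except regain with loss and control8 with initial. Cfd spanned 29.6-fold, from initial (11896 ± 3496) through maintenance (10578 ± 9215), control8 (8908 ± 2530.0), control16 and control12 to gain4 (1932 ± 1955), loss (867 ± 551), gain8 (426 ± 153) and regain (402 ± 70.3), and control12 with gain4 was the 1 pair of neighbours without overlap. Retn spanned 8.36-fold, with maintenance first (1759 ± 928) and gain8 (281 ± 63.9), loss (247 ± 164) and regain (210.3 ± 64.6) last, and Rbp4 4.14-fold, with maintenance first (615 ± 105) and gain8 (263 ± 39.0), loss (189.9 ± 152) and regain (149 ± 50.8) last. Adipoq spanned only 2.46-fold, and the same 3 groups were its lowest: gain8 (2086 ± 357), loss (1961 ± 1209) and regain (1654 ± 359), the other 6 lying between 3256 and 4073 CPM.

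Pearson correlations over the 27 libraries, which share their groups, describe how the genes varied together on the log2 CPM scale. Among the members Retn went with Cfd (r = 0.90) and Rbp4 (r = 0.85), Adipoq with Rbp4 (r = 0.81) and Retn (r = 0.76), and Lep went against Cfd (r = -0.79). Apln and Nampt had correlations of -0.40 to 0.20 with the other members. Across all genes with a mean of at least 5 CPM, the pattern most like Lep was that of Pcyox1 (r = 0.96), followed by Cdr2 (0.95) and Cryab (0.95), and Pcyox1 was also first over the 9 group means (0.99). Adipoq was closest to Smim19 (0.94), Eif4ebp1 (0.94) and Tmed4 (0.93), Retn to Mogat1 (0.95), Fam132a (0.95) and Echdc3 (0.94), and Cfd to Sfxn1 (0.96), Sqrdl (0.96) and Echdc2 (0.95). Rarres2 was closest to Npc2 (0.89), Rbp4 to Tmem216 (0.93), Nampt to Fam210a (0.82) and Apln to Hes1 (0.86) and Dll4 (0.84).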

How the data were processed

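RNA of epididymal fat was measured by RNA-seq in 27 libraries, 3 in each of 9 groups, prepared per the labels' protocols with a TruSeq RNA kit. The submitters' processing notes name Trimmomatic 0.33, TopHat2 2.0.13, HTSeq 0.6.0 and the build mm10 (GRCm38). The gene annotation and strand setting behind the counts are not stated there. The authors deposited raw read counts in a table of 43616 rows. The first row of each gene name was kept, and the 156 rows that repeat a name were left out with their reads. The authors also deposited FPKM for 22194 rows, and 99.9% of the protein-coding values lie within 0.1% of the count per exonic kilobase and per protein-coding count total.

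The counts were filtered with filterByExpr (minimum count 10, minimum total 15), scaled by TMM, with factors of 0.814 to 1.11, and fitted in 1 edgeR 4.0.16 model of all 27 libraries with a mean per group, in R 4.3.3. Quasi-likelihood p-values were adjusted by Benjamini-Hochberg over all 17821 genes within each comparison, and a call is an adjusted p under 0.05. The SE of a log2 fold change is its size over the square root of the test's F. Between replicates chi-square per degree of freedom was 11.1 to 491, so spread between libraries and not counting error limits the precision. Levels are TMM-scaled CPM, and log2 CPM has a prior count of 2. The code was tested on simulated counts.

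All 8 members are described in every group. A member's change is a reported result where it is called or has a log2 fold change of at least 1, and of each related list up to 3 called genes with the smallest adjusted p are named per comparison with age-matched controls; Cmklr1 was added after its values were seen. Some genes that the rule names are not reported here. Genes most like a member have the highest Pearson r among genes with a mean of at least 5 CPM, predicted genes passed over. Members and lists were chosen with earlier results of these data known. The alternatives tried were DESeq2 1.42.0, RLE scaling, no filter, the compared groups only, the replicate number as a block, the Lars2 set (split at 1000 CPM) as a term, 3 libraries left out together, limma 3.58.1 on log2(FPKM + 1) and log2(FPKM + 0.1), and each library left out in turn.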

Additional observations from a re-analysis of the deposited data

Results flagged for a closer look

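For 3 genes the effect against age-matched controls differed between the maintenance and the gain8 group by a test of that difference, a contrast of 4 groups in edgeR's quasi-likelihood model. Leptin was 2.71 ± 0.68 higher on the log2 scale in gain8 than in control8 and differed by -0.77 ± 0.64 between maintenance and control16, and the maintenance effect minus the gain8 effect was -3.48 ± 0.93 (SE, adjusted p = 0.0199). Adipsin (Cfd) had a difference between effects of 5.40 ± 0.96 (adjusted p = 0.00324) and resistin (Retn) one of 2.91 ± 0.74 (adjusted p = 0.0157). The calls of Cfd and Retn held under all 21 alternatives and that of Lep under 19. In each pair the maintenance libraries were widely spread, with Cfd from 3862 to 21084 CPM and Lep from 74.1 to 1742 CPM, and without control16 library 3 the Lep difference was -2.76 (adjusted p = 0.0599).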

How the results depend on the processing

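Of 41 member results, 22 of them called, 663 refits gave 583 with the same direction and side of the threshold, 55 that lost a call, 24 that gained one and 1 that reversed, Cfd in maintenance against control16, which was 1.01 with all libraries and ranged from -0.013 without maintenance library 1 to 1.41 without maintenance library 2 as single libraries were left out. The number of the 8 members called changed as follows, with the cause not tested. With only the compared groups fitted it was 6 for gain8 against control8 (3 in all 27), 0 for loss against control12 (3), 0 for regain against gain4 (2), 3 for regain against maintenance (5), 0 for maintenance against loss (3) and 2 for control8 against initial (0). With 3 libraries left out together it was 1 for loss against control12, 1 for gain4 against control16 and 4 for regain against gain4. For regain against gain4 it was also 0 without the filter on low counts, 4 with DESeq2 and 1 with limma on log2(FPKM + 0.1), and DESeq2 called 1 for control8 against initial. Leaving out 1 library gave 0 to 4 for loss against control12, 0 to 1 for maintenance and for gain4 against control16, 0 to 4 for regain against gain4, 3 to 4 for regain against maintenance and 2 to 3 for gain8 against control8. With the replicate number as a block 1 member was called for regain against gain4, and no other count of members left 1.5 times its value; like-numbered libraries correlated between -0.181 and 0.506 with no comparison of the 13 having every pair over 0.1, and the numbers were not taken as pairs.

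The number of all genes called ranged over these alternatives from 2129 to 5898 for gain8 against control8 (3833), from 1096 to 4567 for loss against control12 (3564), from 0 to 2299, the last without maintenance library 2, for maintenance against control16 (0), from 0 to 2624 for gain4 against control16 (1037), from 2248 to 5360 for regain against control16 (3864), from 0 to 2916 for regain against gain4 (978), from 1580 to 5637 for regain against maintenance (4790) and from 0 to 5212 for maintenance against loss (4368). Apln, at 106 to 784 reads per library, has the fewest reads of the members and so the largest counting error, 9.71% at 106 reads.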
